A study of Mus musculus with 20 samples.

Results

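The Lamp5 interneurons of the mouse hippocampus were examined as a set of 69 nuclei, out of 160777 nuclei in 20 libraries with 1 library per mouse. A nucleus was taken as a Lamp5 interneuron when it held at least 2 UMIs (unique molecular identifiers, 1 per captured RNA molecule) of the GABA-synthesis genes Gad1 and Gad2 together, at least 2 UMIs of Lamp5, no Vip, no Pvalb, at most 1 Sst UMI, and no UMI of the glial genes Mog, Pdgfra, Csf1r and Aqp4. The nuclei were thus selected on measured UMIs. These thresholds fix the levels of the 10 genes named in them, so those levels describe the selection and were not tested. The 69 nuclei were 0.0429% of all nuclei and 1.88% of the 3672 GABA nuclei, which met the Gad and glial criteria, and they came from 16 of the 20 mice.

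All mice were males of 4.5–5.5 months, either APP/PS1 mice, which carry the APPSwe and PS1ΔE9 transgenes of familial Alzheimer's disease (fAD) under the prion protein promoter, or their wild-type littermates (WT). Hippocampi were taken in the awake state (6 WT-Awake and 3 fAD-Awake mice), after 3 h under isoflurane at 5% lowered to 1.5% (3 WT-ISO and 4 fAD-ISO mice), or after 3 h under ketamine at 150 mg/kg with xylazine at 12 mg/kg (2 WT-KETA and 2 fAD-KETA mice). The study asked how anesthesia changes the hippocampus of fAD mice at an early stage. The level of Prnp, the gene of that promoter, was 63.6–433 CPM (UMI counts of the gene relative to all UMIs of the sample, on the usual CPM scale) in the mice labelled fAD and 42.2–196 CPM in those labelled WT, and 5 of the 9 fAD mice lay within the WT range, so genotypes are given as labelled. The series' design text gives other group sizes than the sample labels, and the groups here follow the labels.

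Neurogliaform and ivy cells are small interneurons with dense, fine axons that release GABA into the surrounding neuropil, and they give slow inhibition through GABA-A and GABA-B receptors. Neurogliaform cells of the hippocampus sit mainly in the stratum lacunosum-moleculare and ivy cells nearer the pyramidal layer. Reln and Ndnf encode secreted proteins that mark many neurogliaform cells, whereas Npy and Nos1, for neuropeptide Y and the neuronal nitric oxide synthase, are found in ivy cells and in some neurogliaform cells. Part of the class arises in the medial ganglionic eminence, where Lhx6 is active, and part in the caudal ganglionic eminence, whose interneurons carry Adarb2. Lamp5 itself encodes a membrane protein of the LAMP family and lies at chr2:136052239-136069917 on the plus strand of GRCm38 (mm10).

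The selection rested on few molecules. Of the 69 nuclei, 47 held exactly 2 Lamp5 UMIs, 19 held 3 and 3 held 4, while a further 252 nuclei met every other criterion with 1 Lamp5 UMI and so lay just outside. The median depth was 4253 UMIs per nucleus (range 2204–38453) with a median of 2252 genes. Mice 1 to 4 stood apart from the other libraries. They gave 42 of the 69 nuclei (60.9%) but 26.6% of the GABA nuclei, and the share of GABA nuclei selected was 4.30% in them and 1.00% in the other 16 mice. Their mitochondrial share of UMIs was 0.939–1.78%, against 0.0353–0.336% elsewhere, and Sst in GABA nuclei was at 264–547 CPM against 8.58–158 CPM. Values without these mice are given below for the share, the main marker genes and, in some of the comparisons, the counts of called genes. The deposited libraries held 4743–10877 nuclei and 9243992–25394891 UMIs per mouse, and 3251 of 157472 distinct cell barcodes occurred in 2 or more libraries, with at most 35 shared by any pair.

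The share of selected nuclei varied more between mice than between states or genotypes. It was highest in mouse 2 (fAD-Awake), at 19 of 182 GABA nuclei or 10.4% (95% exact Clopper-Pearson interval 6.40–15.8%), followed by mouse 1 (WT-Awake) at 11 of 282 or 3.90%, and by mouse 13 (WT-Awake) at 6 of 209 or 2.87%. The ISO mice 4 and 3 had 2.42% and 2.27%, and every remaining mouse was at or below 2.12%. No selected nucleus was found in mice 12 (WT-Awake), 20 (fAD-ISO), 27 and 28 (both WT-KETA), where 0 of 120, 190, 79 and 99 GABA nuclei allow shares of up to 2.50%, 1.58%, 3.80% and 3.03%, taken as 3 counts of the total (the upper ends of the exact intervals are 3.03%, 1.92%, 4.56% and 3.66%). These intervals and limits cover counting error only.

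**Figure D1:**
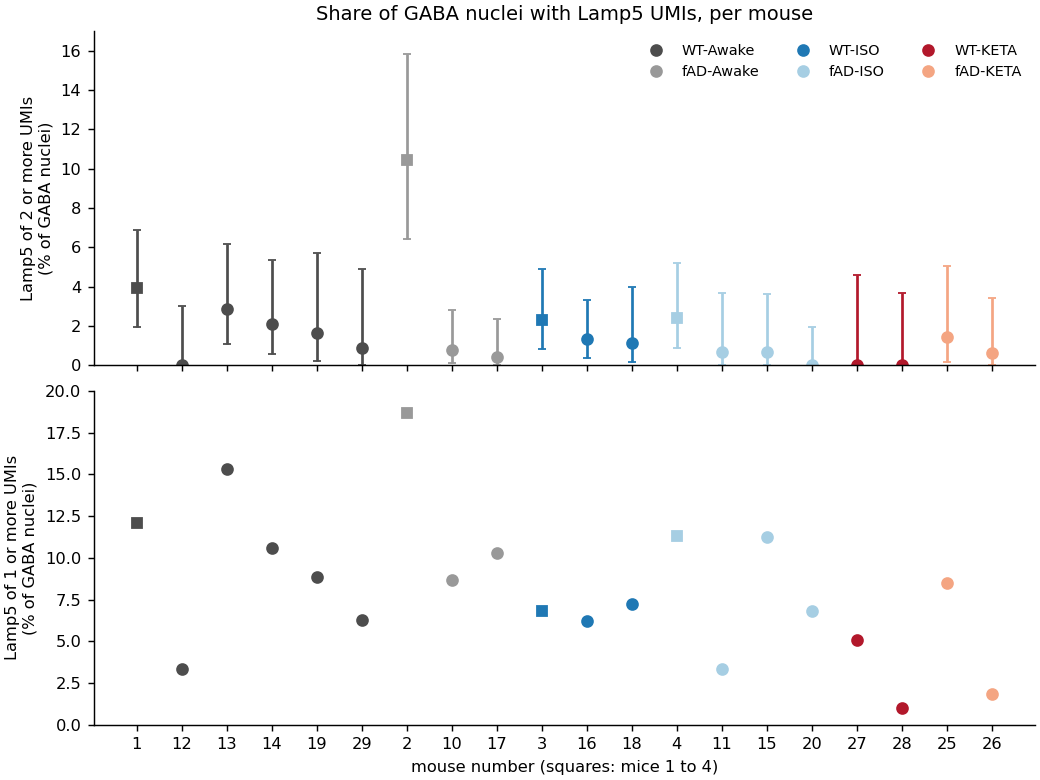
Share of GABA nuclei per mouse, in percent, that held at least 2 Lamp5 UMIs and met the other criteria (upper panel, bars are 95% exact binomial intervals) or held at least 1 (lower panel). Colours mark the 6 groups and squares mark mice 1 to 4. Mouse 2 stands at 10.4% in the upper panel, while the next mouse is at 3.90%.

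The mean share was 2.56 ± 3.20% in the awake state (SD, n = 9), 1.21 ± 0.882% under isoflurane (n = 7) and 0.51 ± 0.673% under ketamine (n = 4). Both anesthetized states differed from the awake state by less than the spread between mice (ISO minus Awake −1.35 percentage points, p = 0.308, adjusted p = 0.462; KETA minus Awake −2.05, p = 0.101, adjusted p = 0.302; two-sided exact permutation tests adjusted over 3 comparisons, with smallest possible p of 0.000175 and 0.0028). Without mouse 2 the differences were −0.369 and −1.07 points, and without mice 1 to 4 they were −0.493 (p = 0.354) and −0.734 (p = 0.218, adjusted p = 0.354 for both, exact permutation tests). Within runs of mouse numbers, which stand in for batches that the labels do not give, the isoflurane mean lay below the awake mean in 4 of 4 runs that held both states, with differences of −4.82 points in mice 1 to 4, −0.553 in mice 10 to 13, −0.286 in mice 14 to 17 and −1.05 in mice 18 to 20. The mean of these differences was −1.68 points (p = 0.081, adjusted p = 0.243, exact permutation within runs, added after the data were seen). Ketamine shared a run with 1 awake mouse only (−0.383, p = 0.8, exact permutation test, smallest possible p 0.2). The fAD mice had 1.94 ± 3.26% (n = 9) and the WT mice 1.46 ± 1.26% (n = 11), a difference of 0.475 points (p = 0.786, adjusted p = 0.786, exact permutation test, smallest possible p 1.2e-05). That difference turned to −0.588 points without mouse 2 and −0.447 without mice 1 to 4, and it was 0.165 within runs (p = 0.933, exact permutation test). Thinning every GABA nucleus to 1500 UMIs left 10 of 1388 nuclei selected, 2 of 388 in mice 1 to 4 and 8 of 1000 in the others, and the fAD minus WT difference was then −0.775 points (p = 0.0954, exact permutation test). With the limit lowered to 1 Lamp5 UMI, 321 nuclei were selected in all 20 mice, with mean shares of 10.4 ± 4.58% awake, 7.58 ± 2.84% under isoflurane and 4.11 ± 3.41% under ketamine (KETA minus Awake −6.34 points, p = 0.0224, adjusted p = 0.0671, exact permutation test). Fewer nuclei of the type and less Lamp5 RNA per nucleus cannot be told apart in any of these shares.

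The nuclei carried GABAergic genes and several of the neurogliaform markers, but Ndnf did not set them apart. Shares of nuclei with at least 1 UMI are compared after each nucleus was thinned to 1500 UMIs, because the classes differed in depth (median 4253 UMIs in the Lamp5 nuclei, 3192 in GABA nuclei without Lamp5 and 977.5 in oligodendrocytes). The intervals of these shares pool the nuclei of the mice and cover counting error only, not the spread between mice. Oligodendrocyte nuclei served as the background, since they should lack these interneuron genes, and 1847 of the 8018 were thinned, from among those that reached 1500 UMIs. Slc32a1, the vesicular GABA transporter, was detected in 21.7% of the thinned Lamp5 nuclei (43.5% unthinned) and in 0.758% of oligodendrocytes (0.624% unthinned). In the 27 Lamp5 nuclei outside mice 1 to 4 its thinned share was 7.41% (95% exact interval 0.910–24.3%), against 6.72% in the GABA nuclei without Lamp5 of those mice.

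Hapln1, which links proteoglycans to hyaluronan in the extracellular matrix, was detected in 33.3% of the thinned Lamp5 nuclei (95% exact interval 22.4–45.7%, and 62.3% unthinned), in 6.78% of GABA nuclei with no Lamp5 UMI (12.5% unthinned) and in 1.14% of oligodendrocytes (0.748% unthinned). The synaptic vesicle protein gene Sv2c was detected in 23.2% (36.2% unthinned), against 5.56% in the nuclei without Lamp5 and 1.95% in oligodendrocytes. Ndnf was found in 4.35% of the thinned nuclei (0.906–12.2%; 18.8% unthinned), which is no more than the 5.15% of GABA nuclei without Lamp5 (8.80% unthinned), with 0.596% in oligodendrocytes. Outside mice 1 to 4 the thinned Lamp5 nuclei held Hapln1 in 22.2%, Sv2c in 22.2% and Ndnf in 7.41%, against 6.57%, 5.96% and 5.00% of those without Lamp5.

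**Figure D2:**
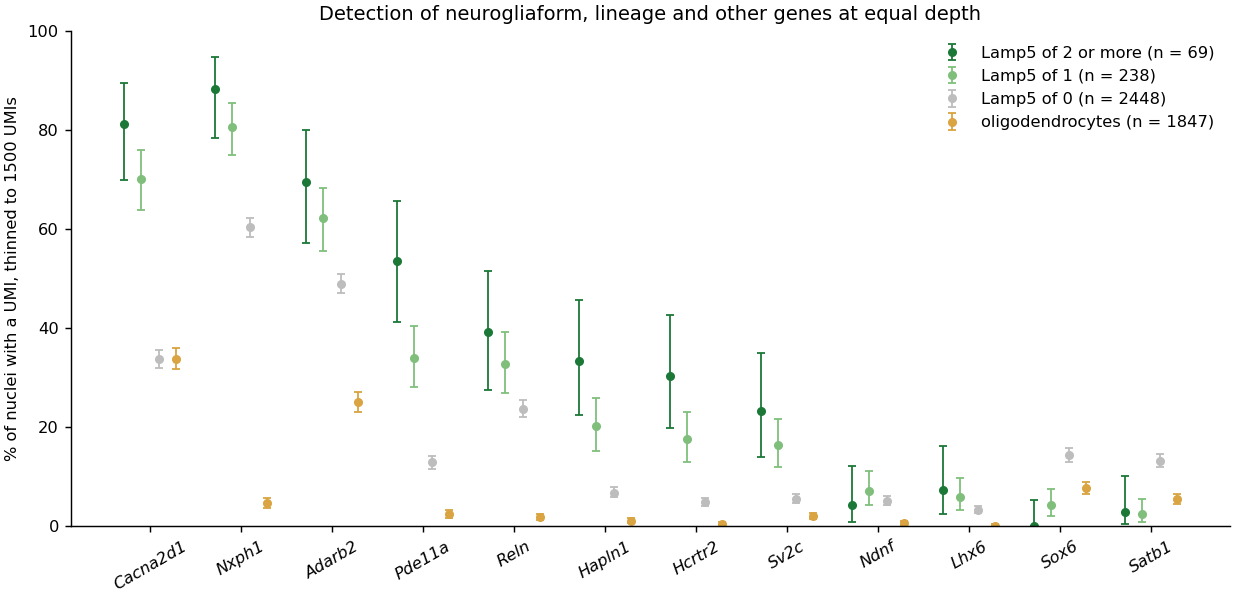
Percent of nuclei with at least 1 UMI of each gene after thinning to 1500 UMIs, in nuclei with 2 or more, exactly 1 or no Lamp5 UMI that met the other criteria, and in oligodendrocytes as background. Bars are 95% exact binomial intervals over nuclei pooled from the mice and do not cover the spread between mice. Pde11a was detected in 53.6%, 34.0%, 12.9% and 2.38% of the 4 sets, while Ndnf was under 10% in each.

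Several genes that the rule did not use followed the number of Lamp5 UMIs. Pde11a, a phosphodiesterase that degrades cAMP and cGMP, was detected in 53.6% of the thinned Lamp5 nuclei (66.7% unthinned), 34.0% of those with 1 Lamp5 UMI and 12.9% of those with none, against 2.38% in oligodendrocytes (1.07% unthinned). Hcrtr2, the type 2 receptor for the wake-promoting orexin peptides, followed the same order at 30.4%, 17.6% and 4.82%, with 0.379% in oligodendrocytes and unthinned shares of 55.1%, 29.4%, 8.17% and 0.362%. Cacna2d1, an auxiliary subunit of voltage-gated calcium channels and the receptor of gabapentin, was at 81.2%, 70.2% and 33.7%, with 33.8% in the thinned oligodendrocytes, 6.87% in Sst nuclei and 11.5% in Pvalb nuclei (unthinned 92.8%, 82.5%, 45.8%, 17.9%, 11.4% and 22.2%). Oligodendrocytes are thus no background for this gene. Outside mice 1 to 4 the thinned shares with 2 or more, 1 and no Lamp5 UMI were 48.1%, 34.1% and 12.9% for Pde11a, 33.3%, 18.0% and 4.70% for Hcrtr2, and 81.5%, 71.9% and 33.6% for Cacna2d1.

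The neurogliaform and ivy markers were found in overlapping sets of nuclei. Reln was present in 41 nuclei, of which 19 also held Npy or Nos1 and 22 held neither, while 16 nuclei held Npy or Nos1 without Reln, 11 held both Npy and Nos1, and 12 held none of the 3 genes. All but 6 of the nuclei (63 of 69) held at least 1 of Ndnf, Reln, Npy, Nos1, Id2, Sv2c, Kit and Hapln1, and 44 held at least 3 of the 8. These counts are unthinned, and no matching count was made in GABA nuclei without Lamp5. They therefore do not show that the nuclei differ from other interneurons. The serotonin receptor gene Htr3a, a marker of other caudal interneurons, was found in 0 of 69 nuclei, which allows a share of nuclei with a UMI of up to 4.35%, taken as 3 counts of the total. It was found in 11.8% of Vip nuclei (5.05% thinned), so a lack of UMIs cannot be read as a lack of the RNA.

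By the 2 lineage genes, 46 nuclei held Adarb2 without Lhx6, 7 held both, 3 held Lhx6 alone and 13 held neither. Adarb2 was thus found in 7 of 10 Lhx6-positive nuclei (2047 CPM of the pooled UMIs) and 46 of 59 Lhx6-negative nuclei (2804 CPM). Origin was not measured and cannot be read from these counts. The 10 Lhx6-positive nuclei had no Ndnf UMI and no UMI of Prox1, a transcription factor of caudal interneurons, whereas 13 and 15 of the 59 Lhx6-negative nuclei held them. Reln was found in 7 of 10 and 34 of 59, Nos1 in 4 of 10 and 21 of 59, and Hcrtr2 in 8 of 10 and 30 of 59. Depth was similar on both sides (median 3922.5 and 4253 UMIs). Across the 116 genes that could be tested in 6 mice, edgeR's quasi-likelihood test with the mouse as a block called none between Lhx6-positive and Lhx6-negative nuclei (0% of genes; 5 at an unadjusted p under 0.05, and DESeq2 also called 0), while 7 were called with no gene filter. Kcnip4, a subunit of A-type potassium channels, had the smallest adjusted p, 0.0546, at a log2 difference of −4.46. Lhx6 was sparse also in Sst nuclei, which come from the medial eminence, at 13.3% (6.49% thinned) against 14.5% (7.25% thinned) in the Lamp5 nuclei and 0.0748% (0.108% thinned) in oligodendrocytes, so a nucleus without an Lhx6 UMI cannot be read as one without Lhx6 RNA.

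UMIs of marker genes of other cells were found as well. Summed over the 69 nuclei, which held 380569 UMIs, the 11 excitatory markers gave 223 UMIs, of which Camk2a gave 162 and Neurod1 none, and 12 nuclei held a UMI of the excitatory transporter gene Slc17a7. The oligodendrocyte-lineage list gave 155 UMIs, 70 of them from Vcan, the astrocyte list 119 and the microglia and vascular list 48, with Cldn5, Flt1 and Rgs5 at 0. In nuclei outside the rule, Vcan was higher with 1 Lamp5 UMI than with none (log2 difference 1.39), so it does not mark other cells alone. Camk2a was there at a median of 463 CPM with 1 Lamp5 UMI and 490 CPM with none. Of the Cajal-Retzius list, Trp73, Lhx1, Lhx5 and Ebf3 were at 0. A doublet score marked 3 of the nuclei.

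The Lamp5 nuclei were next compared with the Sst interneurons (271 nuclei, Sst of at least 2 UMIs), which are the dendrite-targeting cells of the medial eminence, within the 5 mice that held at least 5 nuclei of each class (mice 1, 2, 3, 4 and 13). UMIs were summed per mouse and class and tested with edgeR's quasi-likelihood test, with the mouse as a block. Of 2987 genes tested, 387 were called at an adjusted p under 0.05 (13%), 163 higher (5.46%) and 224 lower (7.5%) in the Lamp5 nuclei. Without mouse 2, which gave 19 of the nuclei, 175 genes were called. Levels of single genes below are CPM of the summed UMIs on library sizes scaled by edgeR's TMM factors, whereas list sums and levels in the other GABA nuclei are on unscaled totals. They are not scaled to gene length and are compared only within a gene.

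Cacna2d1 was at 1949, 2541, 480, 1040 and 545 CPM in the Lamp5 nuclei of mice 1, 2, 3, 4 and 13, and at 76.0, 31.6, 32.0, 56.6 and 62.1 CPM in their Sst nuclei. All 5 values of the Lamp5 nuclei were above all 5 of the Sst nuclei (log2 difference 4.63, SE 0.33, adjusted p = 1.6e-14). The gene lies at chr5:15934691-16374511 on the plus strand of GRCm38. How many of all tested genes separate the classes in this way was not counted. Pde11a (chr2:75989141-76338774, minus strand) was at 636, 563, 444, 757 and 136 CPM against 15.2, 0, 0, 20.2 and 0 CPM, again without overlap (5.80, SE 0.40, adjusted p = 2.0e-15). Fgf13, an intracellular partner of sodium channels, was at 2088, 1862, 1737, 2931 and 2362 CPM against 285, 200, 200, 210 and 335 CPM (3.17, SE 0.24, adjusted p = 1.6e-14). Hcrtr2 was at 338, 485, 73.9, 0 and 273 CPM, from 75 UMIs, against 2 UMIs in all Sst nuclei, and mouse 4 had none on either side (6.14, SE 0.62, adjusted p = 1.3e-10). The ratio of the pooled counts was 159 (exact interval 42.6–1338, which covers counting error only).

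Of the 11 neurogliaform and ivy markers, 8 could be tested against the Sst nuclei, and 6 were higher and 1 lower, with a median log2 difference of 3.35 against −0.09 over all genes. Hapln1 (250 ± 193 against 20.7 ± 12.9 CPM, SD, n = 5), Sv2c (174 ± 87.6 against 12.2 ± 6.73), Nos1 (101 ± 67.6 against 13.0 ± 10.0), Ndnf (121 ± 126 against 10.6 ± 8.17), Id2 and Cacna2d1 were the higher ones. For Ndnf (2.90, SE 0.86, adjusted p = 0.0156) 1 of the 5 mice was at 0 CPM in the Lamp5 nuclei, and the call was lost without mouse 1, 4 or 13 (adjusted p = 0.0606, 0.0991 and 0.107). Npy was lower, at 188 ± 174 against 358 ± 223 CPM (−1.02, SE 0.30, adjusted p = 0.0139), a call that DESeq2 did not make (adjusted p = 0.152) and that was lost without mouse 1, 2 or 4 (0.217, 0.0757 and 0.0939). Reln was at 690 ± 445 CPM against 548 ± 183 CPM and did not pass the test (0.25, SE 0.28, adjusted p = 0.697).

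Genes of the medial and caudal lineages were called as well. Sox6, a transcription factor that medial-eminence interneurons need for their positioning, gave 0 UMIs in the Lamp5 nuclei of all 5 mice and 268 in their Sst nuclei (239–327 CPM), so it was at least 21.0-fold lower, taken against 3 counts over the group. Satb1, which Sst and Pvalb cells need for maturation, gave 1 UMI against 364 (−6.23, SE 0.59, adjusted p = 1.6e-11; ratio 0.0117, exact interval 0.000294–0.0654). That interval and the bound for Sox6 pool the UMIs of the mice and cover counting error only. Elfn1, which shapes the facilitating inputs of Sst cells, was also lower (−4.07, SE 0.64, adjusted p = 3.7e-06), so that 3 of the 6 tested genes of the medial list were lower and none higher. Nxph1, a neurexin ligand on the same list, was not called (1743 ± 420 against 2347 ± 660 CPM; −0.39, adjusted p = 0.30). From the caudal list Adarb2 (3558 ± 565 against 75.6 ± 80.2 CPM; 5.74, SE 0.41, adjusted p = 8.8e-08) and the growth-factor receptor gene Egfr (302 ± 77.1 against 8.18 ± 9.25 CPM; 5.17, SE 0.46, adjusted p = 2.3e-12) were higher among 3 tested.

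Some genes for inhibition and excitability were called too, where 5.46% of all genes were higher and 7.5% lower. The GABA-B receptor subunit gene Gabbr2 was at 407–727 CPM in the Lamp5 nuclei and 95.9–275 CPM in the Sst nuclei (1.42, SE 0.26, adjusted p = 3.9e-05). The mu opioid receptor gene Oprm1 was at 111–252 against 49.6–104 CPM (1.48, SE 0.35, adjusted p = 0.002). The values of neither gene overlapped between the classes, but the share of all tested genes that separate in this way was not counted. Of 9 GABA-A subunits tested, Gabrg3 and Gabrb2 were higher (1.98 and 0.98) and Gabra3 was lower (−2.22). Among 20 potassium and HCN channel genes tested, 6 were higher and 3 lower, to be read against those shares. Kcnn2, a small-conductance calcium-activated channel, was at 462 ± 160 against 91.0 ± 46.0 CPM (2.26, SE 0.28, adjusted p = 1.1e-08), and Kcnc2, a channel of fast repolarization, at 414 ± 245 against 2076 ± 533 CPM (−2.43, SE 0.27, adjusted p = 1.1e-09). Of 14 ionotropic glutamate receptor genes tested, 5 were lower, among them Gria3 (−2.19) and Grin3a (−1.96), and Grin2a was higher (0.91). None of the 27 oxidative phosphorylation genes tested was called. Without mouse 2 the calls of Gabrb2, Oprm1 and Grin2a were lost, at log2 differences of 0.92, 1.50 and 0.81 (adjusted p = 0.0506, 0.0595 and 0.12). Grin2a also lost its call without mouse 1 (0.75, adjusted p = 0.0703) and with no gene filter (0.71, adjusted p = 0.0916), and Gabrb2 with no gene filter (0.77, adjusted p = 0.136) and in the mice other than 1 to 4 (0.81, adjusted p = 0.0874).

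**Figure D3:**
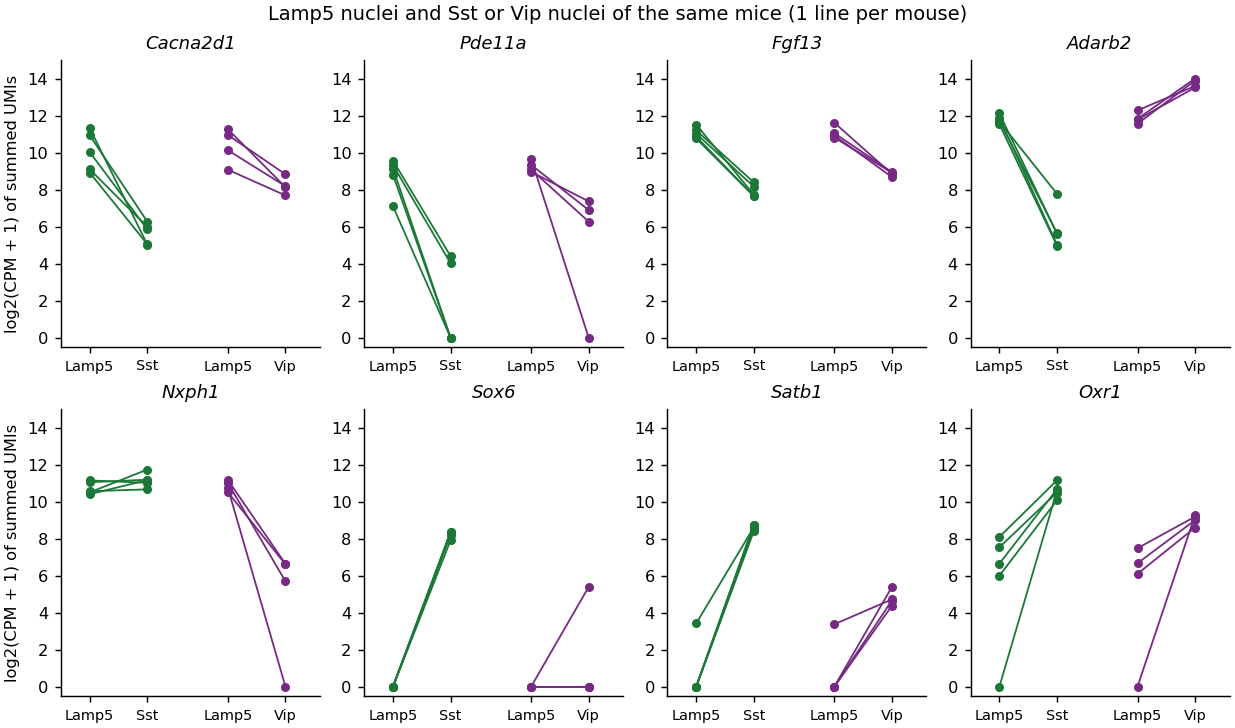
Levels as log2(CPM + 1) of UMIs summed per mouse in Lamp5 nuclei and in the Sst (green, 5 mice) or Vip (purple, 4 mice) nuclei of the same mouse, 1 line per mouse. Pde11a, Cacna2d1 and Fgf13 fall in every mouse from Lamp5 to either class, Sox6 is at 0 in the Lamp5 nuclei, and Nxph1 falls in all 4 mice towards Vip.

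The Vip interneurons (110 nuclei), cells of the caudal eminence many of which inhibit other interneurons, could be compared in mice 1 to 4 only. Of 884 genes tested, 125 were called (14.1%), 58 higher (6.56%) and 67 lower (7.58%) in the Lamp5 nuclei, with 52 called without mouse 1 and 59 without mouse 2. Nxph1 was at 2301, 2052, 1698 and 1452 CPM in the Lamp5 nuclei of mice 1 to 4 and at 98.3, 50.7, 0 and 96.8 CPM in their Vip nuclei (4.76, SE 0.44, adjusted p = 0.00011). Adarb2 went the other way than against the Sst nuclei, at 3779 ± 839 against 13947 ± 2220 CPM (−1.90, SE 0.26, adjusted p = 0.00062). The cannabinoid receptor gene Cnr1 was at 132 ± 136 against 1242 ± 238 CPM (−3.48, SE 0.41, adjusted p = 0.00038), and the peptide gene Cck at 226 ± 122 against 689 ± 335 CPM (−1.61, SE 0.34, adjusted p = 0.0068, or 0.0678 without mouse 2). Sv2c gave 39 UMIs against 0 and was at least 9.87-fold higher. Of the 11 neurogliaform and ivy markers 4 could be tested, Cacna2d1 (2.24) and Hapln1 (3.02) were higher, and Reln and Npy did not pass (1.92, adjusted p = 0.138, and 2.60, adjusted p = 0.0789).

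The Pvalb class held 27 nuclei, and only mice 1 and 3 had enough of them. Here 52 of 359 genes were called (14.5%), 29 higher (8.08%) and 23 lower (6.41%). The count was 16 with DESeq2, 16 after thinning, 25 with no gene filter and 109 with a minimum of 1 nucleus per class. Adarb2 gave 269 UMIs against 1 (7.28, SE 0.89, adjusted p = 2.1e-12). Sox6 gave 0 against 24, at least 12.1-fold lower. The fast potassium channel genes of Pvalb cells were lower, with Kcnc2 at 319 ± 203 against 2391 ± 19.0 CPM (−3.03, SE 0.61, adjusted p = 2.9e-05, n = 2) and Kcnc1 at 262 ± 66.5 against 875 ± 129 CPM (−1.74, SE 0.59, adjusted p = 0.0258). With 2 mice this comparison cannot be checked by leaving out 1, and its p-values rest largely on the spread that edgeR shares across genes.

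Among the 347 genes tested against all 3 classes, 10 were higher in the Lamp5 nuclei each time (2.88%) and 8 lower each time (2.31%). The higher ones were Pde11a (log2 differences against Sst, Vip and Pvalb of 5.80, 2.87 and 2.96), Cacna2d1 (4.63, 2.24 and 3.89), Fgf13 (3.17, 2.25 and 2.21), Sgcz (1.25, 4.30 and 3.21), Grin2a (0.91, 2.89 and 2.64), A830018L16Rik, Nyap2, Tenm1, Gpr158 and Rims1. Sgcz belongs to the sarcoglycans, Grin2a encodes an NMDA receptor subunit, Tenm1 a teneurin of the synaptic cleft and Rims1 a scaffold of the release site. The lower ones were Oxr1, which protects against oxidative damage (−3.63, −2.33 and −4.39), the adhesion genes Pcdh7 (−2.17, −2.25 and −3.02), Ntm (−2.74, −2.35 and −1.75) and Lrrc4c (−1.68, −1.68 and −2.75), and Etl4, Car10, Cit and Fgf12. The 3 comparisons share the Lamp5 nuclei of the same mice. Of these 18 genes, 13 lost their call against Vip nuclei without mouse 1 and 11 without mouse 2, Pde11a with an adjusted p of 0.0523 without mouse 1, and Grin2a without mouse 1, 2 or 3 (adjusted p = 0.100, 0.0607 and 0.128), while at most 2 lost it against Sst nuclei without any 1 mouse.

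These differences were then looked for in a fit that left out mice 1 to 4, and in nuclei outside the rule. In the first fit (at least 1 nucleus of each class), 103 of the 163 genes higher than in Sst nuclei could be tested, and 101 had the same sign and 62 were called (11.2% of the 698 genes tested there were higher). Of the 224 lower genes, 118 could be tested, with 115 of the same sign and 70 called (13.8% of all were lower). Mouse 13, which gave 6 of the 27 Lamp5 nuclei outside mice 1 to 4, is in both sets of mice, so these counts do not come from separate mice alone. Against the Vip nuclei 34 of the 58 higher genes could be tested there, 33 with the same sign and 24 called (11.7% of 332 genes), and 48 of the 67 lower genes, all with the same sign and 39 called (14.8%). Against the Pvalb nuclei, 23 of the 29 higher genes could be tested, all with the same sign, and 19 of the 23 lower genes, 18 with the same sign, but none of either was called, as none of the 417 genes tested there was.

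The nuclei just outside the rule were examined in the same way. Nuclei with exactly 1 Lamp5 UMI were compared with the 2705 nuclei that met the other criteria with no Lamp5 UMI, in the 15 mice that had enough of both, and 399 of 7864 genes were called (5.07%), 123 higher (1.56%) and 276 lower (3.51%). Of the 163 genes higher than in Sst nuclei, 140 had the same sign here and 76 were called in that direction, with 1, Zfp804a, called in the other. Of the 224 lower genes 220 could be tested, 211 had the same sign, 109 were called in that direction and 1 in the other. Pde11a (1.41, SE 0.12, adjusted p = 3.9e-22) and Cacna2d1 (1.19, SE 0.12, adjusted p = 8.6e-11) were higher with 1 Lamp5 UMI, and Hcrtr2 (1.56) and Hapln1 (1.63) were called as well. Npy was the lower gene called in the other direction (0.81, adjusted p = 0.0073), and Adarb2 was not called (−0.25, adjusted p = 0.689). Of the neurogliaform and ivy markers 6 of 10 tested were higher and none lower, with a median of 0.95 against −0.08 over all genes. Those not called were Reln (0.52, edgeR adjusted p = 0.310), Ndnf (0.21, 0.797), Id2 (0.70, 0.285) and Gabrd (0.28, 0.754).

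**Figure D4:**
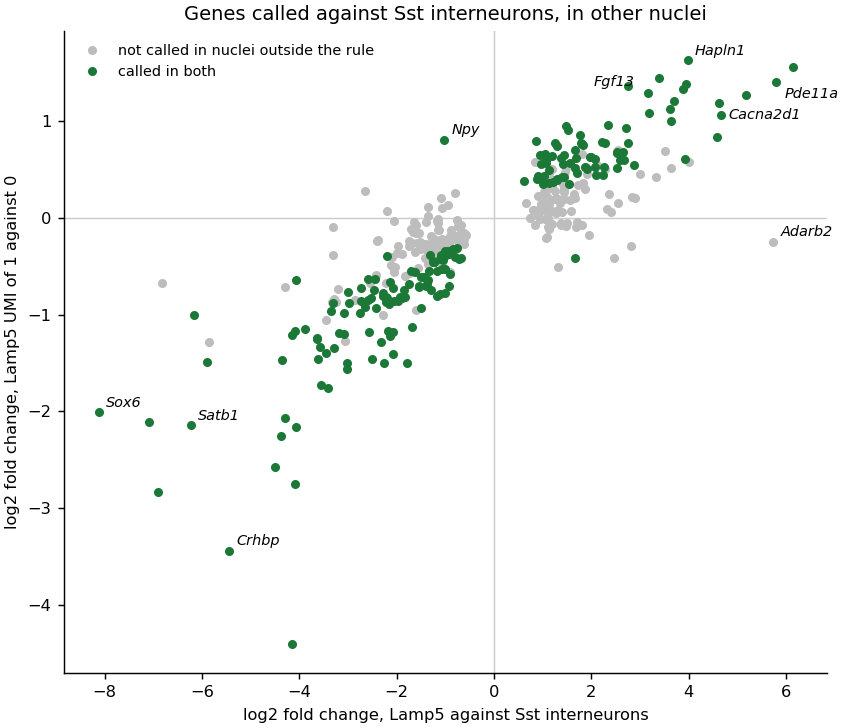
Each point is a gene called between Lamp5 and Sst interneurons, by its log2 difference there (x axis) and by its log2 difference between nuclei with exactly 1 and with no Lamp5 UMI (y axis), none of which belong to the 69. Green points were called in both comparisons. Most points lie in the lower left and upper right quadrants, and Npy and Adarb2 are among the exceptions.

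No change with isoflurane or genotype was called within the 69 nuclei. A fit over the 16 mice with at least 1 selected nucleus tested 424 genes, and edgeR called none (0%) for isoflurane against awake (11 at an unadjusted p under 0.05, DESeq2 0), for fAD against WT in the awake state (1, DESeq2 0), for fAD against WT under isoflurane (14, DESeq2 0) or for the difference between the genotypes in the response (17, DESeq2 0). For isoflurane against awake, Cacna2d1 stood at −0.99 (adjusted p = 0.987), and Gm45904, the gene with the smallest p among the higher ones, at 2.79 (adjusted p = 0.592). The 4 ketamine mice held 3 selected nuclei, all in fAD-KETA, so gene levels were not tested between ketamine and awake mice within the set alone, and ketamine entered only the shares above and the class-by-state test below.

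The interneurons with at least 1 Lamp5 UMI, 321 nuclei in all 20 mice, gave more depth. This wider set was chosen after the data were seen, and it includes the 69 nuclei, which are 24.5% of it awake, 17.7% under isoflurane and 15.0% under ketamine. Isoflurane against awake called 11 of 2468 genes (0.446%), 6 higher (0.243%) and 5 lower (0.203%). Hcrtr2 was at 135 CPM at the lowest, 254 at the median and 377 at the highest in the 9 awake mice, and at 50.3, 59.4 and 113 CPM in the 7 isoflurane mice. Every isoflurane mouse lay below every awake mouse (−1.80, SE 0.29, adjusted p = 0.00114; such separation was found for 7 of 2468 genes, 0.284%). In the other GABA nuclei of the same mice Hcrtr2 also ran lower under isoflurane, at 33.2–74.5 CPM awake and 11.4–29.2 CPM, and the difference between the responses was not called (−0.48, adjusted p = 1.00).

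Unc5c, a netrin receptor for axon guidance, was at 1965, 3625 and 5754 CPM awake (lowest, median and highest) and at 775, 1495 and 1950 CPM under isoflurane, again without overlap (−1.36, SE 0.24, adjusted p = 0.00353). In the other GABA nuclei it was at 989–1942 CPM awake and 570–1083 CPM under isoflurane (difference between the responses −0.85, adjusted p = 0.455). The other lower genes were Vcan, a chondroitin sulfate proteoglycan (−1.50, adjusted p = 0.0301), the endocytic adaptor Hip1 (−1.53, adjusted p = 0.0301) and the chromatin factor Arid5b (−1.49, adjusted p = 0.0431). Among the 6 higher genes Gm45904, annotated as an antisense RNA, had the smallest p, at 27.0, 102 and 347 CPM awake and 211, 535 and 888 CPM under isoflurane (2.55, SE 0.32, adjusted p = 9.9e-06), with Ctnna1 (2.18), Sept10 (2.73), Epha10 (1.42), Garnl3 (1.03) and Sergef (1.10) beside it. Gm45904 lies at chr8:112880460-113004997 on the minus strand, and unless the counting used the strand its reads cannot be told apart from those of an overlapping gene. Of the 5 lower genes Hcrtr2 (1.56), Vcan (1.39) and Unc5c (0.78) were called higher with 1 Lamp5 UMI than with none (1.56% of all genes were), and of the 6 higher genes none was called there. Some nuclei are in both comparisons. The count of 11 fell to 3 without mouse 2 or 15 and rose to 19 without mouse 29, and it was 27 with the runs of mouse numbers as a block. Without mice 1 to 4, Gm45904 was the 1 gene still called (2.85, adjusted p = 6.6e-06), while Hcrtr2 kept its direction at −1.43 (adjusted p = 0.221) and Unc5c at −1.17 (adjusted p = 0.156). In nuclei with exactly 1 Lamp5 UMI, none of them in the set of 69, Hcrtr2 (−1.73, adjusted p = 0.0127) and Unc5c (−1.32, adjusted p = 0.00965) were called. These nuclei are 252 of the 321 of the wider set, from the same mice, so their calls are no separate support.

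None of the 9 GABA-A subunits, 20 potassium and HCN channels, 2 activity-regulated genes and 3 clock genes tested was called with isoflurane, beside 0.446% of all genes. Their log2 differences were −0.57 to 0.40, −0.64 to 0.71, −0.19 to −0.18 and −0.15 to 0.25. At so small a share of calls the lack of a call does not show that a gene did not change. The 6 neurogliaform and ivy markers tested were not called either, with a median of −1.04 against 0.01 over all genes. Summed over the list, these markers were at 2126, 3449 and 4615 CPM awake and 1144, 1867 and 2044 CPM under isoflurane, and at 1055–1518 and 736–1315 CPM in the other GABA nuclei. No gene was called in this wider set between fAD and WT awake (0% of 2468; 86 at an unadjusted p under 0.05, DESeq2 0), under isoflurane (77, DESeq2 0) or for the interaction (64, DESeq2 0). With the runs of mouse numbers as a block, 5 genes were called higher in fAD awake, named after their values were seen: Ptprk (2.45), Gm20754 (2.03), Plcl1 (1.82), Zfpm2 (1.81) and Slc4a4 (1.79), with adjusted p of 0.0244–0.0488.

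**Figure D5:**
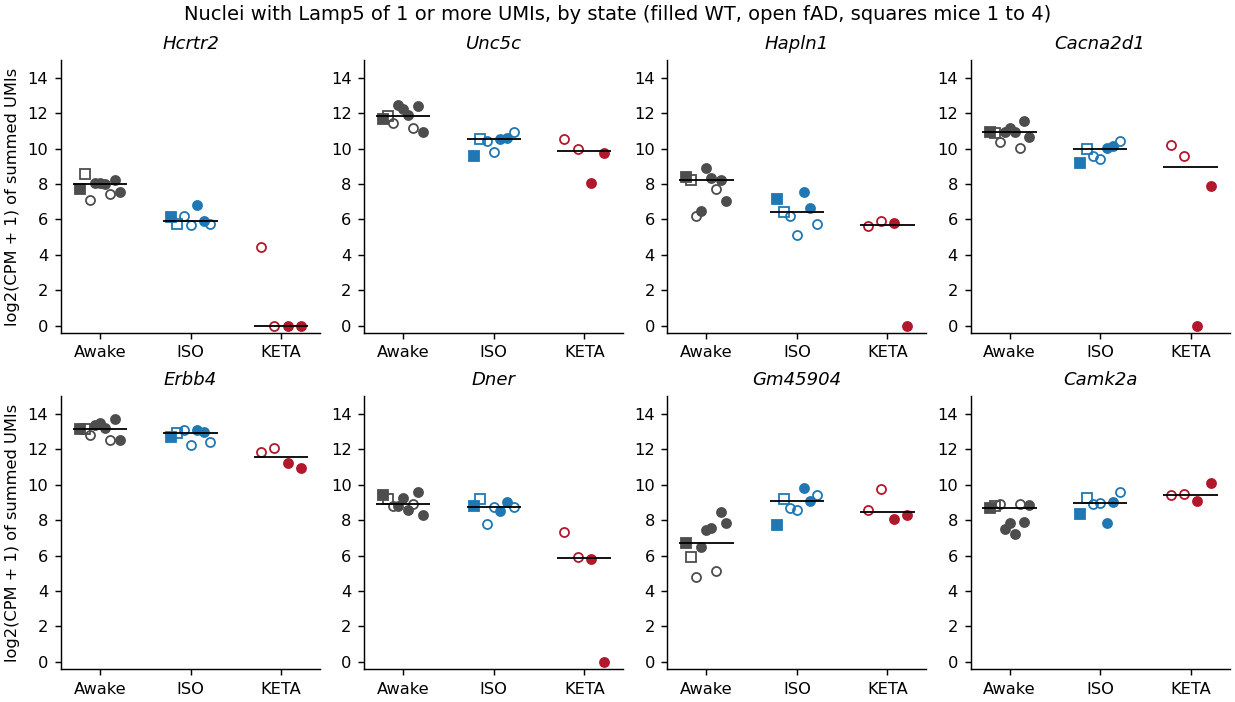
Levels as log2(CPM + 1) in nuclei with at least 1 Lamp5 UMI, summed per mouse, for 9 awake, 7 isoflurane and 4 ketamine mice. Filled symbols are WT, open symbols fAD, squares mice 1 to 4 and horizontal lines the median of each state. Hcrtr2 and Unc5c do not overlap between awake and isoflurane mice, and Camk2a, a gene of excitatory neurons, is highest in the ketamine mice.

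Ketamine against awake called 45 of the 2468 genes (1.82%), 40 lower (1.62%) and 5 higher (0.203%), while the median of all genes was −0.17. The ketamine values rest on 20 nuclei, of which mice 25, 26, 27 and 28 gave 12, 3, 4 and 1, and all 4 mice fall in a run of mouse numbers (25 to 29) with mouse 29 as the only awake mouse, so ketamine and this run cannot be told apart beyond that mouse. With the runs as a block edgeR called 0 genes, and without mouse 28, which gave 1 nucleus, it called 26. Hcrtr2 gave 3 UMIs in all, at 0, 0, 0 and 21.0 CPM, against 187 CPM in mouse 29 and 203 UMIs in all awake mice (adjusted p = 0.000602; ratio of the pooled counts 0.0632, exact interval 0.0129–0.187). That interval pools the UMIs of all mice and covers counting error only, not the spread between mice. Nxph1 was at 78.2, 643, 701 and 940 CPM, below the 1104 CPM of mouse 29, which was itself the lowest awake value (−1.99). Egfr was at 0, 0, 0 and 56.1 CPM against 18.7 CPM in mouse 29 and 208–472 CPM in the other awake mice, so mouse 29 lies within the ketamine range for Egfr although the gene was called (−4.89).

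Erbb4, the neuregulin receptor of interneurons, was at 1955, 2374, 3619 and 4381 CPM under ketamine, 5988 CPM in mouse 29 and 5952–13663 CPM over all awake mice (−1.55). Cacna2d1 (−2.44) and Hapln1 (−2.57) were the 2 neurogliaform markers called of 6 tested, with a list median of −2.73, and the summed list was at 242, 671 and 1707 CPM (lowest, median and highest). The GABA-A subunit gene Gabrb2 (−1.82), the adrenergic receptor gene Adra1a (−4.50), the potassium channel gene Kcnh7 (−1.70) and the transcription factor gene Mef2c (−4.51) were lower too. The higher genes were the calcium release channel gene Ryr2 (1.11), Dock4 (1.56), Galnt17 (1.75), Gm32509 (2.41) and Gm45904 (2.14). Of the 40 lower genes 22 were higher with 1 Lamp5 UMI than with none, and 4 of the 5 higher genes were lower, where 1.56% of all genes were higher and 3.51% lower. Some of the nuclei are in both comparisons. Ketamine and awake mice did not overlap for 66 of 2468 genes (2.67%), Hcrtr2, Unc5c and Erbb4 among them. The 11 excitatory markers summed to 666, 898 and 1536 CPM in the ketamine nuclei, against 180, 572 and 700 CPM awake and 246, 630 and 827 CPM under isoflurane, with 581–708 CPM in the other GABA nuclei of the ketamine mice. Their part in the ketamine result, and that of the lower share of nuclei with Lamp5 in these mice, was not tested.

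Ketamine against isoflurane called 6 genes (0.243%), with Kcnq5, a channel of the M-current, higher (1.79; 0.0405% of genes) and Erbb4 (−1.30), Dner (−2.68), Mef2c (−4.34), Sgcz (−1.21) and Galntl6 (−1.35) lower (0.203%). This count was 1 without mouse 28 and 21 without mouse 27, and 0 with the runs of mouse numbers as a block. No isoflurane mouse is in the run of the ketamine mice, so ketamine against isoflurane cannot be told apart from a difference between runs. The comparisons of isoflurane and of ketamine with the awake state share the awake mice, so their values stand side by side only.

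Whether a response differed from that of the other GABA nuclei of the same mice was tested with a class-by-state term. For the 69 Lamp5 nuclei, isoflurane gave 0 calls among 10056 genes (610 at an unadjusted p under 0.05 with edgeR, DESeq2 0) and ketamine 1, lower (0.00994%). In the wider set of 321 nuclei the isoflurane response differed for 1 of 8405 genes, lower (0.0119%), and the ketamine response for 19 (0.226%), 17 lower (0.202%) and 2 higher (0.0238%). Erbb4 had a ketamine response of −1.54 relative to the other GABA nuclei (SE 0.29, adjusted p = 0.00045), where its level was 3645–5685 CPM under ketamine and 3981–7048 CPM awake. Unc5c had one of −1.49 (SE 0.32, adjusted p = 0.00385).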

How the data were processed

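Single-nucleus RNA was measured in frozen hippocampus of 20 mice, 1 library per mouse. The deposited values were whole-number UMI counts per gene and nucleus, made by the authors with Cell Ranger 5.0.0 on mm10 per the submitters' processing notes. The methods also name CellBender and DoubletFinder, and the kit version and the way the brains were taken differ between the labels and the methods. They also state that tissue was processed 4 samples at a time with every group of their design in each batch, but the labels do not tie mice to batches, so runs of mouse numbers (1–4, 10–13, 14–17, 18–20 and 25–29) were used as an inferred block in an alternative. No cell annotation was used here. The members and gene lists were chosen with earlier results of these data known. Nuclei were selected on raw UMIs as given in the results, and oligodendrocyte nuclei (at least 1 Mog UMI, no Gad1 or Gad2, and a further criterion that is not reported here) gave the background, with up to 300 drawn per mouse. Doublets were scored by a nearest-neighbour score and marked (10125 of 160777 nuclei), and were kept.

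UMIs were summed per mouse and class and tested with edgeR 4.0.16 in R 4.3.3 (TMM scaling, filterByExpr, robust quasi-likelihood, Benjamini-Hochberg over all genes tested, threshold 0.05), with the mouse as a block between classes and 1 fit of the 6 groups between states. Genes of the selection rules were left out. Single-gene CPM levels use the TMM-scaled library sizes, and list sums, Prnp and other GABA nuclei the unscaled totals. DESeq2 1.42.0 was an alternative. Shares of GABA nuclei were compared by two-sided exact permutation tests in scipy 1.17.1. Detection was also computed after thinning each nucleus to 1500 UMIs, with exact Clopper-Pearson 95% intervals. The scripts were tested on simulated data. A minimum of 10 nuclei per mouse had been planned for the state comparisons, but 2 mice reached it, so every mouse with at least 1 nucleus was used, and the same was done for the Lhx6 split in place of a planned 5. P-values between states and genotypes measure the spread between mice as labelled. In fits with the mouse as a block they measure the spread of the difference within mice. Intervals and bounds on pooled UMI counts or pooled nuclei cover counting error only. Gene positions are from GENCODE vM21 on GRCm38. Genes were named by rule: the 5 with the smallest p in each direction, called members of each list and otherwise its most abundant ones, the markers, and the 10 with the largest fold among those called against all 3 classes.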

Additional observations from a re-analysis of the deposited data

Results flagged for a closer look

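Of 34 groups of 4 to 6 mice examined, 4 held a mouse far from the others in the wider set of nuclei with at least 1 Lamp5 UMI, where chance gives about 1 in 20. In WT-Awake, mouse 12, with 4 such nuclei, was highest for Arid5b at 719 CPM, for Sept10 at 89.9 CPM and for Sergef at 270 CPM. In fAD-ISO, mouse 11, with 5 such nuclei, was highest for Hcrtr2 at 73.8 CPM, still below every awake mouse. In so few nuclei these levels rest on a few UMIs, which the chance rate above does not take into account. Most of the flagged values come from mouse 12.

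The response to ketamine of the 69 Lamp5 nuclei differed from that of the other GABA nuclei for 1 of 10056 genes (0.00994%), Reln (−10.64, SE 2.30, edgeR adjusted p = 0.036). Reln gave 194 UMIs in the awake Lamp5 nuclei (32 of 46 nuclei), 38 under isoflurane (9 of 20) and 0 of 52081 UMIs under ketamine. Taken against 3 counts, the pooled ketamine level was at least 14.0-fold lower than awake. That bound covers the counting error of UMIs only. Reln was missing from part of the nuclei in the other states too, so it is not a bound for the state. The ketamine value rests on 3 nuclei, 2 of mouse 25 and 1 of mouse 26, and 1 nucleus of mouse 25 gave 38453 of the UMIs, with 35 of Camk2a and 5 of Slc17a7. Without mouse 25 the nucleus of mouse 26 leaves 6777 UMIs, and the bound falls to at least 1.82-fold. The call was lost without mouse 13, 14, 16, 25 or 26. The ketamine nuclei held 590–883 CPM of the neurogliaform and ivy list, with 8 of its 11 genes at 0, against 1178–6177 CPM awake, and 1170–1771 CPM of the excitatory list against 110–785 CPM awake. The part of these values in the result was not tested. For isoflurane the same test called 0 of 10056 genes (610 at an unadjusted p under 0.05, DESeq2 0).

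In the wider set, the response to isoflurane differed from that of the other GABA nuclei for 1 of 8405 genes (0.0119%), Sema6a, a semaphorin of axon guidance (−2.32, adjusted p = 0.045). The response to ketamine differed for 19 genes (0.226%), 17 of them lower (0.202%) and 2 higher (0.0238%). The higher ones were Slco5a1 (6.48) and 4930509J09Rik (1.91). The lower ones included the receptor genes Erbb4 (−1.54), Unc5c (−1.49), Ptprt (−1.55) and Ptprm (−1.45), the channel genes Kcnh7 (−1.33), Trpc5 (−1.75) and Cacna2d1 (−1.48), and the adhesion and synaptic genes Nxph1 (−1.52), Cntn5 (−1.60), Dner (−1.97), Astn2 (−1.35) and Frmpd4 (−1.30). Nyap2 (−1.62), Pld5 (−1.74), Zmat4 (−1.44), Sgcz (−1.70) and Galntl6 (−1.58) completed them. Without mice 1 to 4, 8 genes were called, and ketamine cannot be told apart from the run of mice 25 to 29 beyond mouse 29.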

How the results depend on the processing

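The class differences rest on mice 1 to 4 for most of their nuclei, and the state comparisons of the 69 nuclei on 1 or 2 nuclei in many mice. Of the named-gene values under the alternatives, 1517 stayed on their side of the threshold, 357 lost their call in the same direction and 2 changed sign. The cause of the shifts below was not tested.

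The fAD minus WT share turned from 0.475 to −0.775 points with thinning and −0.447 without mice 1 to 4. Leaving out 1 mouse gave −0.588 (without mouse 2) to 0.719, and −1.67 to −0.369 for isoflurane and −2.37 to −1.07 for ketamine. Among the 69 nuclei, the 0 genes called became 1 for isoflurane when Slc17a7 of 0 was required, 1 for fAD awake with no gene filter and 1 with at least 4 nuclei per mouse, 1 for fAD under isoflurane with Lamp5 of 3 or more and 1 with at least 4 nuclei, and, for the interaction, 1 without mice 1 to 4 and 2 with at least 4 nuclei. Leaving out 1 mouse gave 0 to 1 for fAD under isoflurane (1 without mouse 26) and 0 for the other 3.

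In the wider set, the 11 genes called for isoflurane became 18 with DESeq2, 22 with no filter, 27 with runs as a block, 1 without mice 1 to 4 and 7 in nuclei with exactly 1 Lamp5 UMI, and 3 to 19 leaving out 1 mouse. It was 3 to 7 without mouse 1, 2, 3, 4, 10, 11, 13, 15, 16, 17, 18, 19 or 20, and 17, 17 and 19 without 27, 28 and 29. For fAD awake the block gave 5, and for the interaction no filter gave 1. The 45 for ketamine against awake became 82 with no filter and 0 with the block, and 26 (without mouse 28) to 64 (without mouse 4). The 6 for ketamine against isoflurane became 24 with DESeq2, 13 with no filter and 0 with the block, and 1 (without mouse 28) to 21 (without mouse 27), with 13, 12 and 11 without 20, 25 and 29.

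Against Sst nuclei, 387 became 176 with thinning and 174 in the other mice with at least 1 nucleus, and 175 (without mouse 2) to 379. Against Vip nuclei, 125 became 74 with thinning, and 52 (without mouse 1) to 164, with 59 without mouse 2. Against Pvalb nuclei, 52 became 16 with thinning, 16 with DESeq2, 25 with no filter, 109 with at least 1 nucleus per class and 0 with that minimum and mice 1 to 4 left out. There, Kcnip4 against Pvalb turned to 0.93 and Grik1 against Vip to −0.32, neither of them called by edgeR. The Lhx6 split gave 7 with no filter, and the 399 between 1 and 0 Lamp5 UMIs became 249 without mice 1 to 4.

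The 1 gene of the ketamine response became 0 with DESeq2, no filter or without mice 1 to 4, and 0 to 1 leaving out 1 mouse. In the wider set the isoflurane response went from 1 to 0 without mice 1 to 4 and 0 with DESeq2, and the ketamine response from 19 to 8 and 51. Tests of ketamine against the other states on gene levels within the 69 nuclei alone, a split at 2 Lhx6 UMIs, a thinned Lhx6 split and leaving out a mouse against Pvalb were not run. Classes were compared within mice, but between states and genotypes no paired analysis was possible because the groups share no replicate numbers, and the runs of mouse numbers stood in for the processing batches, which the labels do not give.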
